A study of Mus musculus with 9 samples.

Results

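Trichohyalin (Tchh), 4 peptidylarginine deiminases (Padi1, Padi2, Padi3 and Padi4) and 4 transglutaminases (Tgm1, Tgm2, Tgm3 and Tgm5) were followed in mouse skin. The 9 genes were taken by name from gene tables of 49585 genes, and all 9 were among the 14415 genes with enough reads to be tested. The question was which of these protein-modifying enzymes went with the hair follicle and which with the epidermis. Total RNA of whole skin had been sequenced in 9 libraries, 3 per group. The first group was labelled IL-6 KO, with the genotype IL-6 -/- on the strain C57BL/6, the second was wild-type BALB/c and the third was wild-type C57BL/6. Animals came from Jackson Laboratory aged 4 to 5 weeks, had 2 weeks to settle, were shaved on day 0 at 6 weeks of age, received no treatment, and gave skin on day 8. The protocol counts 6 IL-6 KO, 3 BALB/c and 3 C57BL/6 mice and does not say which mouse gave which library. The p-values below therefore reflect only how far these libraries differ within a group, which may be technical spread. Sex, body site and hair cycle stage are not stated in the labels.

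Trichohyalin is an arginine-rich structural protein of the inner root sheath and the medulla of the hair. Peptidylarginine deiminases convert the arginines of such proteins to citrulline, which loosens their fold. Transglutaminases then join glutamine to lysine side chains, and the same chemistry hardens the inner root sheath in the follicle and the cornified envelope in the epidermis.

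The coding sequence of Tchh is rich in arginine, on which deiminases act, and glutamine, on which transglutaminases act. Of its 1599 codons, 25.6% encode arginine, 26.0% glutamate, 14.9% glutamine and 2.81% lysine. The gene lies on chromosome 3 (chr3:93442330-93449077, plus strand, GRCm38) and has 2 exons, of which the second holds nearly all of the coding sequence. Inside that exon a stretch of 60 bases stands 3 times in a row without a difference, starting at positions 93445697, 93445757 and 93445817. One copy is shown because it carries arginines and glutamines close together: of its 20 codons, 6 encode arginine (in capitals), 3 glutamine, 6 glutamate and 0 lysine.
Tchh repeat, chr3:93445697-93445756, plus strand: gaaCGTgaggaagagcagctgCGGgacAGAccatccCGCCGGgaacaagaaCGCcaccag

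Library totals were 3843953 to 4476346 exon reads in the IL-6 KO-labelled libraries, 6115739 to 6242332 in BALB/c and 6083876 to 6882193 in C57BL/6. Levels below are CPM, reads of a gene scaled to a common library total, after TMM scaling, a correction for the make-up of each library. Il6, the targeted gene, was not lower where the label calls for it: it had 6, 24 and 1 reads in the IL-6 KO-labelled libraries, 0, 2 and 0 reads in BALB/c, and 2, 1 and 0 reads in C57BL/6, and the tables do not show where in the gene these reads lie. The IL-6 KO-labelled libraries stood apart in hair markers as a whole. The 8 inner root sheath keratins summed to 35678, 9300 and 25527 CPM there, against 13.9, 0.998 and 1.30 CPM in BALB/c and 365, 65.3 and 1.67 CPM in C57BL/6. In the same library order, the 17 suprabasal epidermal markers summed to 8540, 31181 and 11455 CPM in the IL-6 KO-labelled libraries, 26838, 27442 and 30642 CPM in BALB/c, and 23003, 28219 and 17531 CPM in C57BL/6. Replicate 2 of the IL-6 KO-labelled libraries was therefore the lowest of its group in hair keratins and the highest in epidermal markers. In such whole-skin samples a smaller share of a cell type and less RNA per cell cannot be told apart.

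Tchh was the member with the widest range. It stood at 24384, 6181 and 15664 CPM in the IL-6 KO-labelled libraries, at 4.14, 3.82 and 3.73 CPM in BALB/c, and at 288, 54.3 and 2.97 CPM in C57BL/6. The IL-6 KO-labelled libraries did not overlap with either strain, and the C57BL/6 libraries differed among themselves 97.1-fold between replicates 1 and 3. Tchh rose in the IL-6 KO-labelled libraries, 134-fold over C57BL/6 (log2 fold change 7.06, SE 1.37, adjusted p = 0.00423, by the Benjamini-Hochberg method from edgeR's quasi-likelihood F test) and 3930-fold over BALB/c (log2 11.94, SE 1.68, adjusted p = 9.60e-04, same test). Without C57BL/6 replicate 1 the first log2 fold change was 9.04, and without C57BL/6 replicate 3 it was 6.46. BALB/c against C57BL/6 gave a log2 fold change of -4.88 (SE 1.29), which missed the threshold of 0.05 (adjusted p = 0.0805 by edgeR), and the 2 groups overlapped. It passed with DESeq2 (adjusted p = 0.00252) and, without C57BL/6 replicate 3, also with edgeR (log2 -5.45).

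The reads of Tchh carry a limit that touches its absolute level. Outside exon-exon junctions, 0 of its 196945 exon reads were counted as unique by the authors, and its whole exon length lies inside the antisense gene Gm37245. The strand setting of the counting is not given in the sources used here. Reads across the single junction were 1710 in the IL-6 KO-labelled libraries, 0 in BALB/c and 27 in C57BL/6, and 99.7% of them were unique. On unique exon reads alone the log2 fold change over C57BL/6 was 6.47. Of its 50-base windows, 10.1% occur more than once, letter for letter, in its transcript. Near copies and matches elsewhere in the genome were not counted, and the cause of the missing unique reads was not tested. Padi1, Padi2 and Tgm2, which overlap other annotated genes over 53.2%, 60.3% and 80.9% of their exon bases, had 5.51%, 2.37% and 3.08% of their non-junction reads counted as unique. Padi3, Padi4, Tgm1, Tgm3 and Tgm5 had 100% and share no exon base with another gene.

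**Figure D1:**
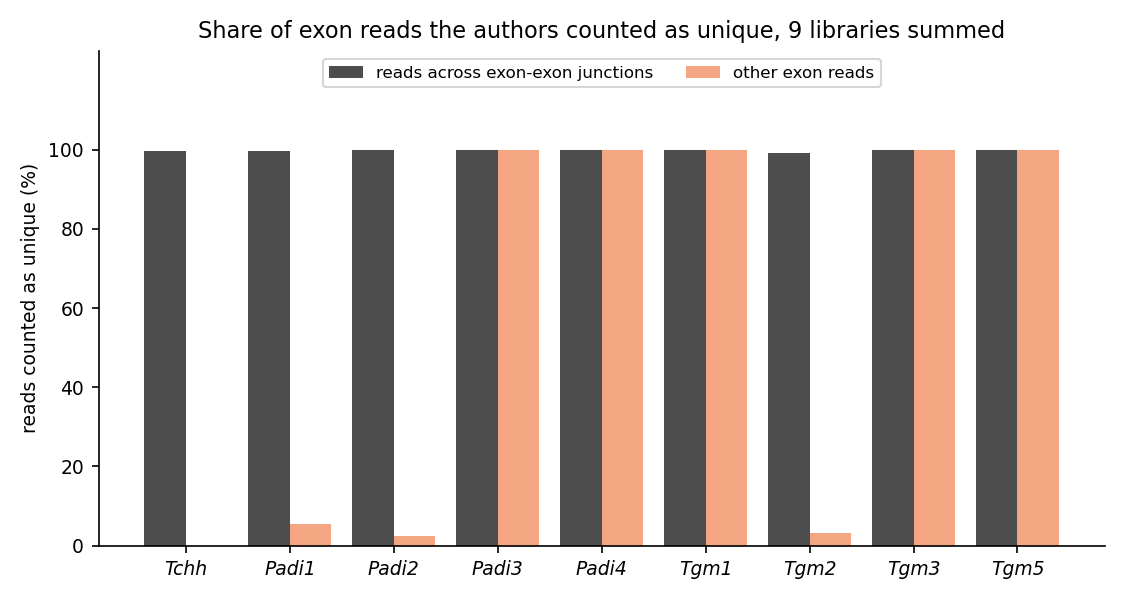
Percentage of exon reads that the authors counted as unique (vertical axis) for each of the 9 genes, summed over 9 libraries, for reads across exon-exon junctions (dark bars) and other exon reads (light bars). Light bars are at or near 0 for Tchh (0%), Padi1 (5.51%), Padi2 (2.37%) and Tgm2 (3.08%), and at 100% for the remaining 5 genes.

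The 4 deiminase genes lie in 1 stretch of chromosome 4 (gene positions are those of the deposited tables, on GRCm38), and Padi1, Padi3 and Padi4 were highest, like Tchh, in the IL-6 KO-labelled libraries. Padi3 (chr4:140785365-140810648, minus strand), known from human hair as a modifier of trichohyalin, stood at 890.1, 245 and 615 CPM in the IL-6 KO-labelled libraries, at 0.318, 0.166 and 0.162 CPM in BALB/c (4 reads in all), and at 9.38, 2.39 and 0.186 CPM in C57BL/6. It was 142-fold higher than in C57BL/6 (log2 7.15, SE 0.87, adjusted p = 5.99e-04, edgeR) and 2442-fold higher than in BALB/c (log2 11.25, SE 1.15, adjusted p = 3.28e-04, edgeR). The groups did not overlap in either comparison. Without C57BL/6 replicate 1 the log2 fold change over C57BL/6 was 8.70. BALB/c and C57BL/6 overlapped, with a log2 fold change of -4.10 (SE 1.36) that missed the threshold (adjusted p = 0.143 by edgeR) and passed with DESeq2 (adjusted p = 0.0283).

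Padi1 (chr4:140812983-140845778, minus strand), a deiminase of both epidermis and follicle, stood at 308, 91.2 and 195 CPM in the IL-6 KO-labelled libraries, at 0.318, 0.665 and 0.162 CPM in BALB/c (7 reads in all), and at 4.46, 0.895 and 0.557 CPM in C57BL/6. It was 96.8-fold higher than in C57BL/6 (log2 6.60, SE 0.67, adjusted p = 4.43e-04, edgeR) and 493-fold higher than in BALB/c (log2 8.94, SE 0.82, adjusted p = 2.35e-04, edgeR). As for Padi3, C57BL/6 replicate 1 was the highest wild-type library, and without it the log2 fold change over C57BL/6 was 8.00. Padi1, Padi3 and Padi4 reached the minimum for testing only through the IL-6 KO-labelled libraries, so they had to differ there and their folds and p-values are given as a description. Between the strains Padi1 overlapped, with a log2 fold change of -2.35 (SE 1.13, adjusted p = 0.291, edgeR) for BALB/c against C57BL/6.

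Padi4 (chr4:140745865-140774236, minus strand), best known from neutrophils, where it modifies histones, stood at 157, 38.3 and 100.4 CPM in the IL-6 KO-labelled libraries, at 0.637, 0.665 and 0.649 CPM in BALB/c, and at 2.31, 1.49 and 2.23 CPM in C57BL/6. As a description, for the reason given for Padi1, it was 48.8-fold higher than in C57BL/6 (log2 5.61, SE 0.52, adjusted p = 4.29e-04, edgeR) and 146-fold higher than in BALB/c (log2 7.19, SE 0.61, adjusted p = 1.73e-04, edgeR). The 3 groups did not overlap at all, although BALB/c against C57BL/6 missed the threshold (log2 -1.59, SE 0.80, adjusted p = 0.314, edgeR). Of 12 listed neutrophil markers, 4 had enough reads to be tested. In the IL-6 KO-labelled libraries 3 of these were called higher and 0 lower than in C57BL/6 (median log2 fold change 3.70). Against BALB/c, 2 were called higher and 0 lower (median 1.96). Some of them, including S100a8, reached the minimum for testing only through the IL-6 KO-labelled libraries, so these counts are a description. S100a8, which keratinocytes can also make, stood at 14.5, 28.3 and 16.6 CPM in the IL-6 KO-labelled libraries, 1.11, 1.16 and 2.11 CPM in BALB/c, and 0.307, 4.18 and 0.557 CPM in C57BL/6. Its partner S100a9 had a log2 fold change of 3.91 (SE 0.68) over C57BL/6. Ly6g had 0 reads in all 9 libraries, Ngp in the IL-6 KO-labelled libraries and BALB/c, and Elane in the IL-6 KO-labelled libraries, which allows up to 3 reads in each library. Mpo went the other way against BALB/c, with 2, 0 and 0 reads in the IL-6 KO-labelled libraries, 8, 5 and 3 in BALB/c, and 0 in each C57BL/6 library. The 12 markers summed to 31.2, 81.4 and 37.4 CPM in the IL-6 KO-labelled libraries, where S100a8 and S100a9 made up most of the sum. They summed to 10.2, 10.8 and 15.2 CPM in BALB/c and 8.61, 8.95 and 5.38 CPM in C57BL/6. The part of neutrophils in the level of Padi4 was not tested.

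Padi2 (chr4:140906344-140952586, plus strand), the most widely expressed deiminase, went the other way. Its levels were 7.67, 11.2 and 5.09 CPM in the IL-6 KO-labelled libraries, 11.0, 16.1 and 12.0 CPM in BALB/c, and 31.8, 55.8 and 134 CPM in C57BL/6. It fell 9.16-fold against C57BL/6 in the IL-6 KO-labelled libraries (log2 fold change -3.20, SE 0.52, adjusted p = 0.00196, edgeR), and -0.70 on the log2 scale against BALB/c missed the threshold (SE 0.53, adjusted p = 0.326, edgeR). It was the 1 member called between the strains, at 5.64-fold lower in BALB/c than in C57BL/6 (log2 fold change -2.50, SE 0.49, adjusted p = 0.0279, edgeR). That call ended without C57BL/6 replicate 3 (log2 -1.75, adjusted p = 0.0517 by edgeR), without any 1 of the BALB/c libraries, and on unique exon reads (adjusted p = 0.0797 by edgeR). Without C57BL/6 replicate 3 the value against C57BL/6 in the IL-6 KO-labelled libraries was -2.47.

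Among the 4 transglutaminases followed here, Tgm3 (chr2:130012349-130050399, plus strand), which crosslinks proteins of both the inner root sheath and the cornified envelope, rose most. It stood at 193, 43.2 and 159 CPM in the IL-6 KO-labelled libraries, at 20.1, 27.6 and 25.8 CPM in BALB/c, and at 13.7, 4.47 and 6.13 CPM in C57BL/6. It rose 16.1-fold over C57BL/6 (log2 4.01, SE 0.58, adjusted p = 0.00117, edgeR) and 5.37-fold over BALB/c (log2 2.42, SE 0.53, adjusted p = 0.00698, edgeR). The 3 groups did not overlap. BALB/c was above C57BL/6 in each library, with a log2 fold change of 1.59 (SE 0.56, adjusted p = 0.167, edgeR) that passed with DESeq2 (adjusted p = 0.0403). Without C57BL/6 replicate 1 the log2 fold change over C57BL/6 in the IL-6 KO-labelled libraries was 4.62.

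Tgm1 (chr14:55700009-55713492, minus strand), the membrane-bound transglutaminase of the cornified envelope, rose less. Its levels were 187, 124 and 144 CPM in the IL-6 KO-labelled libraries, 62.4, 81.3 and 75.6 CPM in BALB/c, and 50.6, 77.0 and 39.4 CPM in C57BL/6. It rose 2.73-fold over C57BL/6 (log2 1.45, SE 0.25, adjusted p = 0.00252, edgeR) and 2.08-fold over BALB/c (log2 1.06, SE 0.25, adjusted p = 0.00985, edgeR). The strains overlapped, with a log2 fold change of 0.39 (SE 0.25, adjusted p = 0.425, edgeR) for BALB/c against C57BL/6.

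Tgm2 (chr2:158116402-158146436, minus strand), the transglutaminase found in most tissues, was lower: 75.9, 109.7 and 84.1 CPM in the IL-6 KO-labelled libraries, 133, 407 and 334 CPM in BALB/c, and 351, 168 and 354 CPM in C57BL/6. It fell 3.24-fold against C57BL/6 in the IL-6 KO-labelled libraries (log2 fold change -1.69, SE 0.42, adjusted p = 0.0123, edgeR) and equally against BALB/c (log2 -1.69, SE 0.42, adjusted p = 0.0120, edgeR). The call against C57BL/6 ended without replicate 1 or 3 of the IL-6 KO-labelled libraries (adjusted p = 0.0503 by edgeR in each case). BALB/c and C57BL/6 both averaged 291 CPM and overlapped, with an SE of 0.40 on the log2 difference between them.

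Tgm5 (chr2:121046111-121085841, minus strand), an epidermal transglutaminase, stood at 13.5, 26.5 and 15.5 CPM in the IL-6 KO-labelled libraries, at 23.6, 17.0 and 19.0 CPM in BALB/c, and at 29.5, 30.7 and 33.8 CPM in C57BL/6. It was 1.68-fold lower than in C57BL/6 in the IL-6 KO-labelled libraries (log2 fold change -0.75, SE 0.24, adjusted p = 0.0385, edgeR). That call ended without any 1 C57BL/6 library, without replicate 1 or 3 of the IL-6 KO-labelled libraries, or without replicate 3 of BALB/c (adjusted p from 0.0561 to 0.136, edgeR). Against BALB/c the IL-6 KO-labelled libraries overlapped, at -0.09 on the log2 scale (SE 0.25, adjusted p = 0.789, edgeR), and BALB/c lay below C57BL/6 in each library at -0.66 (SE 0.24, adjusted p = 0.179, edgeR).

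**Figure D2:**
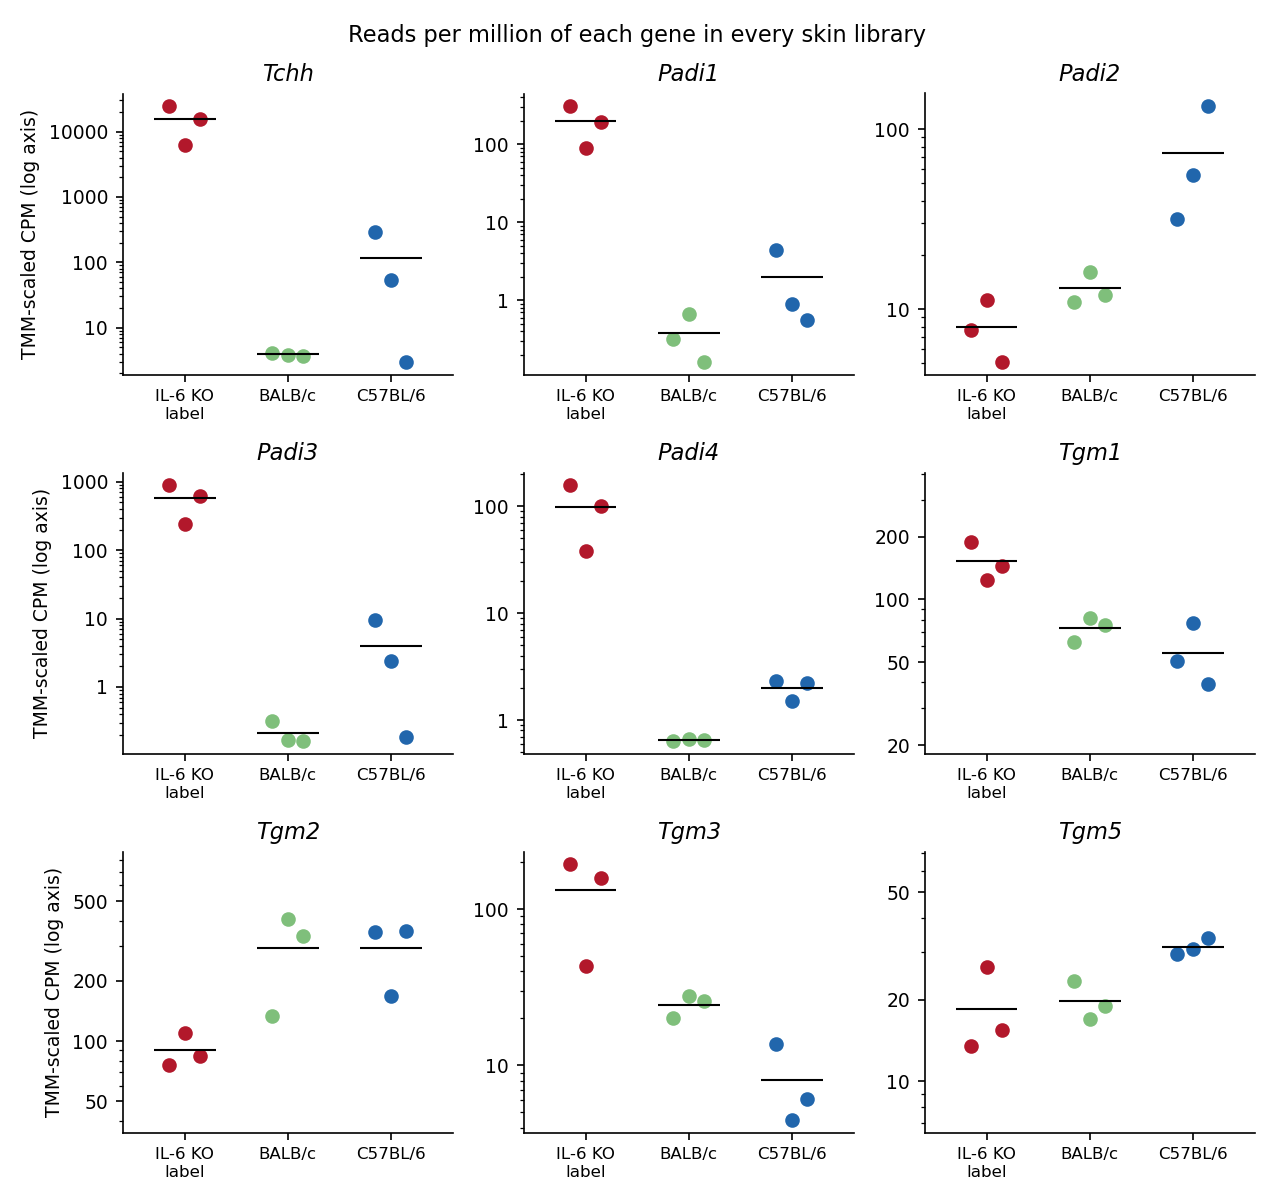
TMM-scaled CPM on a log axis for each of the 9 genes in every library, with the IL-6 KO-labelled libraries on the left, BALB/c in the middle and C57BL/6 on the right; points are libraries in replicate order and lines are group means. Tchh, Padi1, Padi3, Padi4, Tgm1 and Tgm3 are highest in the IL-6 KO-labelled libraries without overlap, and Padi2 and Tgm5 are highest in C57BL/6.

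Counted over the comparisons, 6 members were called higher and 3 lower in the IL-6 KO-labelled libraries than in C57BL/6, where 35.2% of all tested genes were called (19.2% higher and 16% lower). In all 9 the 2 groups did not overlap, which held for 47.5% of all genes (24.6% higher and 23% lower). Against BALB/c, 6 were called higher and 1 lower, where 37.3% of all genes were called (19.9% higher and 17.4% lower). The same 7 did not overlap, against 50.7% of all genes (26.7% higher and 24% lower). Between BALB/c and C57BL/6, 1 member was called, lower, where 3.41% of all genes were called (1.63% higher and 1.78% lower). There 4 members did not overlap, namely Tgm3 above and Padi2, Padi4 and Tgm5 below, against 30.2% of all genes (14.6% higher and 15.6% lower). Of the 6 members called higher in the IL-6 KO-labelled libraries, Padi1, Padi3 and Padi4 were tested only through those libraries. The 2 comparisons of the IL-6 KO-labelled libraries share those libraries, so their counts are not independent.

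**Figure D3:**
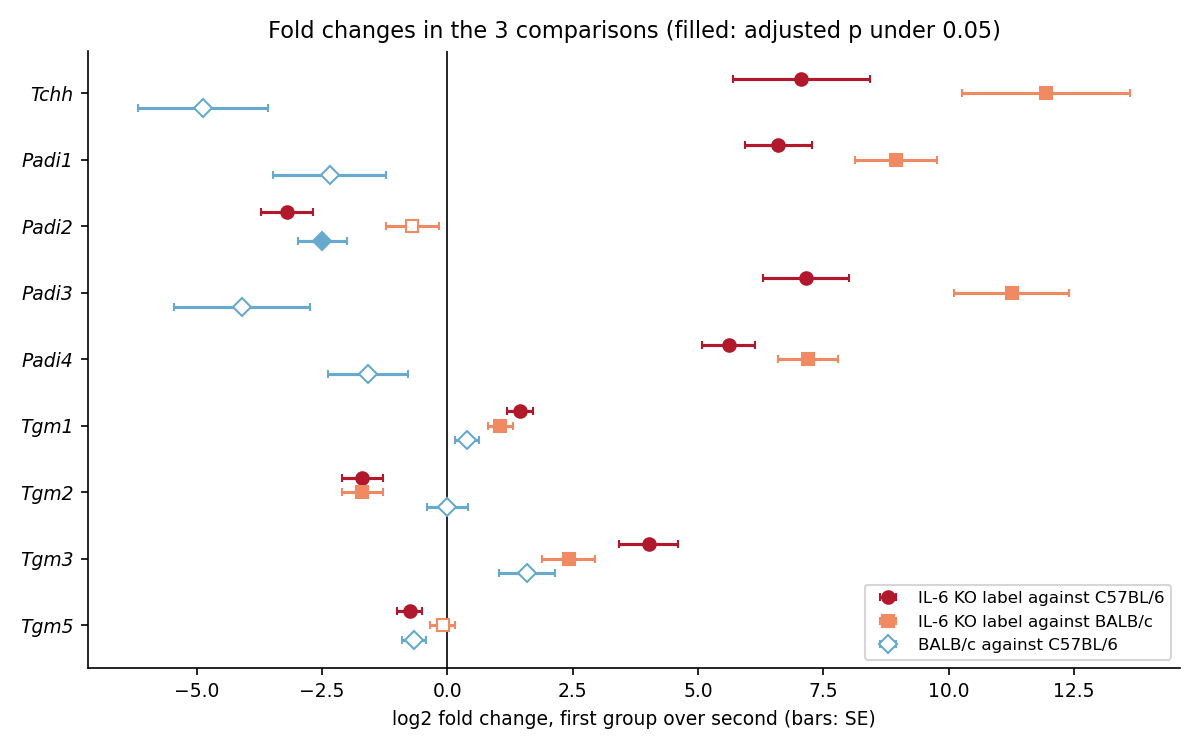
Log2 fold change (horizontal axis, bars show the SE) of each of the 9 genes in the 3 comparisons, with filled symbols for adjusted p under 0.05 (edgeR). Tchh, Padi1, Padi3 and Padi4 lie between 5.61 and 11.94 in both comparisons of the IL-6 KO-labelled libraries, Tgm3 and Tgm1 between 1.06 and 4.01, and Padi2, Tgm2 and Tgm5 at or below 0.

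The make-up of each family changed with these shifts. Per kilobase of exon, Padi3 held 69.0% ± 1.68 of the summed level of the 4 deiminases in the IL-6 KO-labelled libraries, 2.28% ± 1.25 in BALB/c and 10.4% ± 13.2 in C57BL/6 (SD, n = 3 each). Padi2 held 0.975% ± 0.987 in the IL-6 KO-labelled libraries, 89.6% ± 1.90 in BALB/c and 82.2% ± 20.4 in C57BL/6. On total exon reads Padi2 was thus the leading deiminase transcript of every wild-type library, at 59.1% or more, and the least of the 4 in each IL-6 KO-labelled library, at 2.11% or less. In the transglutaminases, Tgm1 led in the IL-6 KO-labelled libraries with 47.0% ± 2.85, against 25.9% ± 6.67 in BALB/c and 21.3% ± 12.1 in C57BL/6. Tgm2 held 19.2% ± 8.14 in the IL-6 KO-labelled libraries, 60.6% ± 12.3 in BALB/c and 65.8% ± 13.7 in C57BL/6. Tgm3 held 27.8% ± 13.3 in the IL-6 KO-labelled libraries, 6.25% ± 1.39 in BALB/c and 2.02% ± 0.960 in C57BL/6. Of these total exon reads, 35.2% were counted as unique for Padi2, 46.0% for Padi1 and 47.7% for Tgm2, against 100% for the others. On unique reads, C57BL/6 replicate 1 had 56 for Padi2 and 61 for the shorter Padi3. BALB/c replicate 1 had 375 for Tgm2 and 392 for the shorter Tgm1. The leading gene of a library can therefore depend on which reads are counted.

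**Figure D4:**
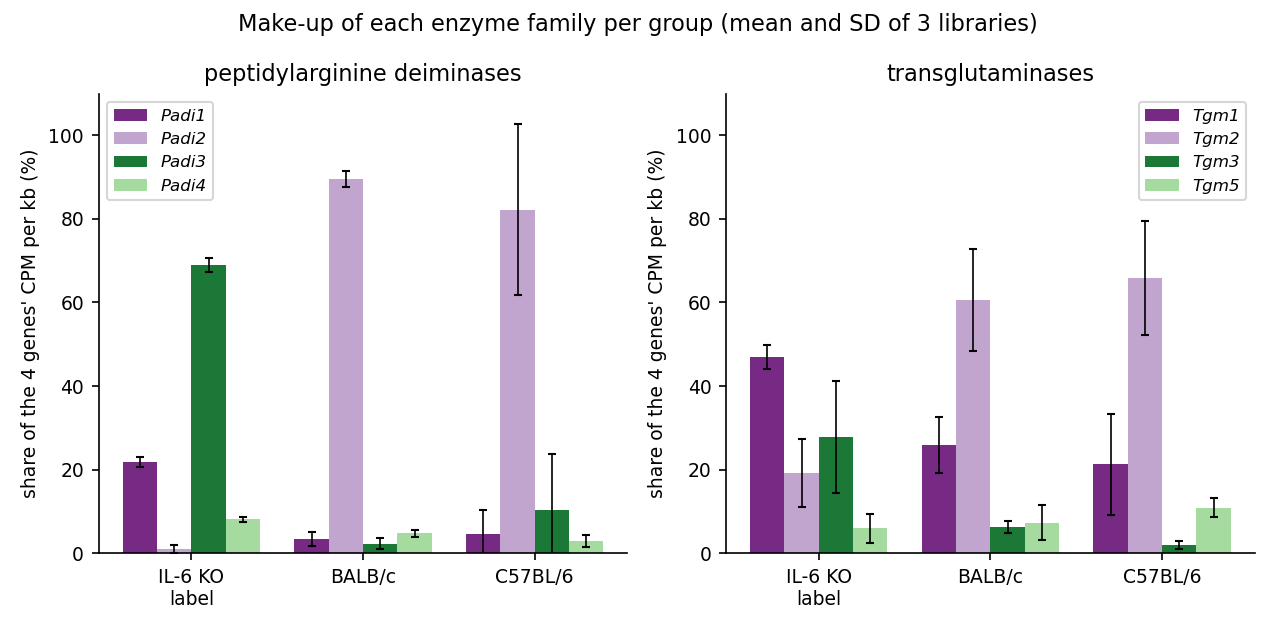
Share of the summed CPM per kilobase of the 4 deiminases (left) and of the 4 transglutaminases (right) held by each gene, as the mean and SD of 3 libraries per group. On total exon reads, Padi3 leads the deiminases in the IL-6 KO-labelled libraries and Padi2 in both strains. Tgm1 likewise leads the transglutaminases in the IL-6 KO-labelled libraries and Tgm2 in both strains, although fewer reads of Padi1, Padi2 and Tgm2 were counted as unique.

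Ratios of genes within a library depend little on how libraries are scaled. The log2 ratio of Tgm3 to Tgm1 was 0.04, -1.52 and 0.14 in the IL-6 KO-labelled libraries, -1.61, -1.54 and -1.53 for BALB/c, and -1.85, -3.96 and -2.59 for C57BL/6. The 3 groups did not overlap, although replicate 2 of the IL-6 KO-labelled libraries lay close to BALB/c. The log2 ratio of Padi3 to Padi1 was 1.53, 1.42 and 1.65 in the IL-6 KO-labelled libraries, 0, -0.81 and 0 in BALB/c, where it rests on 4 reads of Padi3 and 7 of Padi1, and 0.99, 1.05 and -0.62 in C57BL/6. An exact two-sided permutation test over 3 against 3 libraries cannot go below p = 0.1. The 2 ratios reached it in both comparisons of the IL-6 KO-labelled libraries (Benjamini-Hochberg adjusted 0.12 over 6 tests). Tgm3 to Tgm1 also reached it in BALB/c against C57BL/6, with the same adjusted value. For Padi3 to Padi1, the 0.5 CPM added before taking logs is above every level of Padi3 in BALB/c and draws the ratio there towards 0. Its test therefore says nothing about these enzymes.

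To place each gene beside hair or epidermis, its log2 ratio to the summed CPM of a marker list was taken in each library and the SD of that ratio over the 9 libraries was used as a measure of likeness, with a low value where gene and list moved together. All 9 points share library depth, and most of the range comes from the difference between groups, so the values are a description. A gene's own SD of log2 CPM over the 9 libraries sets the scale, since following a list brings the SD below it. That own SD was 5.45 for Tchh, 4.48 for Padi3, 3.67 for Padi1 and 2.92 for Padi4. It was 1.81 for Tgm3, 1.46 for Padi2, 0.966 for Tgm2, 0.723 for Tgm1 and 0.465 for Tgm5. Tchh had an SD of 1.02 to the inner root sheath keratins, 1.09 to the hair shaft keratins and 5.89 to the suprabasal list. Padi3 had 0.368 to the hair shaft keratins, the lowest value of any member to a hair list, 1.82 to the inner root sheath keratins and 4.94 to the suprabasal list. Padi1 had 1.19, 2.72 and 4.16 to the same lists. In BALB/c the 0.5 CPM added is above every level of Padi3 (4 reads) and near those of Padi1 (7 reads). This narrows their range, so over 9 libraries the order of the 2 hair lists cannot be read for these genes. Within the IL-6 KO-labelled libraries Padi3 and Padi1 were nearer to the inner root sheath keratins (0.067 and 0.181) than to the hair shaft keratins (0.348 and 0.457).

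Padi4 was less clear, with 1.95 to the hair shaft keratins, 3.24 to the basal list and 3.49 to the inner root sheath keratins. Its levels in the strains rest on few reads, 12 in BALB/c and 37 in C57BL/6. Within the IL-6 KO-labelled libraries alone, where hair and epidermal markers ran in opposite directions, it had an SD of 0.081 to the inner root sheath keratins and 2.01 to the suprabasal list. Within BALB/c and C57BL/6 it was nearer to the basal (0.663) and suprabasal (0.872) lists than to the hair shaft (1.32) or inner root sheath (2.97) keratins, and nearest to the endothelial list (0.372), which was compared after these values were seen. Within the IL-6 KO-labelled libraries Tchh gave 0.081 and 1.99 and Padi3 gave 0.067 and 1.93 to the inner root sheath and suprabasal lists.

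Tgm3 followed none of the hair and epidermal lists over 9 libraries. Its SD was 2.19 to the basal list and 2.30 to the suprabasal list. It was 3.42 to the hair shaft keratins and 4.92 to the inner root sheath keratins. The own SD of Tgm3, 1.81, lies below all of these values. Within the IL-6 KO-labelled libraries it followed the hair shaft keratins with an SD of 0.120, against 2.15 to the suprabasal list, whereas within BALB/c and C57BL/6 it had 2.15 to the hair shaft keratins and 0.944 to the suprabasal list. Tgm1 had 1.04 to the basal list over 9 libraries, its lowest value, which is above its own SD of 0.723. Over 9 libraries it therefore followed none of these lists. Within BALB/c and C57BL/6 it kept to the suprabasal list with an SD of 0.167, the lowest of any member in those 6 libraries, and within the IL-6 KO-labelled libraries it did not, with 1.25.

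Of the hair and epidermal lists Tgm5 kept closest to the basal one, with 0.312 over 9 libraries and 0.102 within the IL-6 KO-labelled libraries. Its own SD over 9 libraries was only 0.465. The endothelial list was as close over 9 libraries (0.319), and within BALB/c and C57BL/6 the melanocyte (0.288) and endothelial (0.318) lists were closer than the basal list (0.384). Padi2 and Tgm2 were nearer to epidermal than to hair lists, with 1.26 to the basal list for Padi2 and 0.831 to the suprabasal list for Tgm2. Both values lie little below the genes' own SDs of 1.46 and 0.966. A list from outside the skin's epithelium lay closer to both. To 11 skeletal muscle genes, a list compared after these values were seen, Padi2 had an SD of 0.898 and Tgm2 of 0.542. All 11 of those muscle genes were called lower in the IL-6 KO-labelled libraries than in C57BL/6, and their sum was 9252 to 10556 CPM in the IL-6 KO-labelled libraries, 25507 to 55078 CPM in BALB/c and 51131 to 89510 CPM in C57BL/6. Against BALB/c, 10 of the 11 were called lower. Of 9 endothelial markers, 8 were called lower in the IL-6 KO-labelled libraries than in C57BL/6 and 1 lower than in BALB/c. The part of these cell types in the levels of Padi2, Tgm2 and Tgm5 was not tested.

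**Figure D5:**
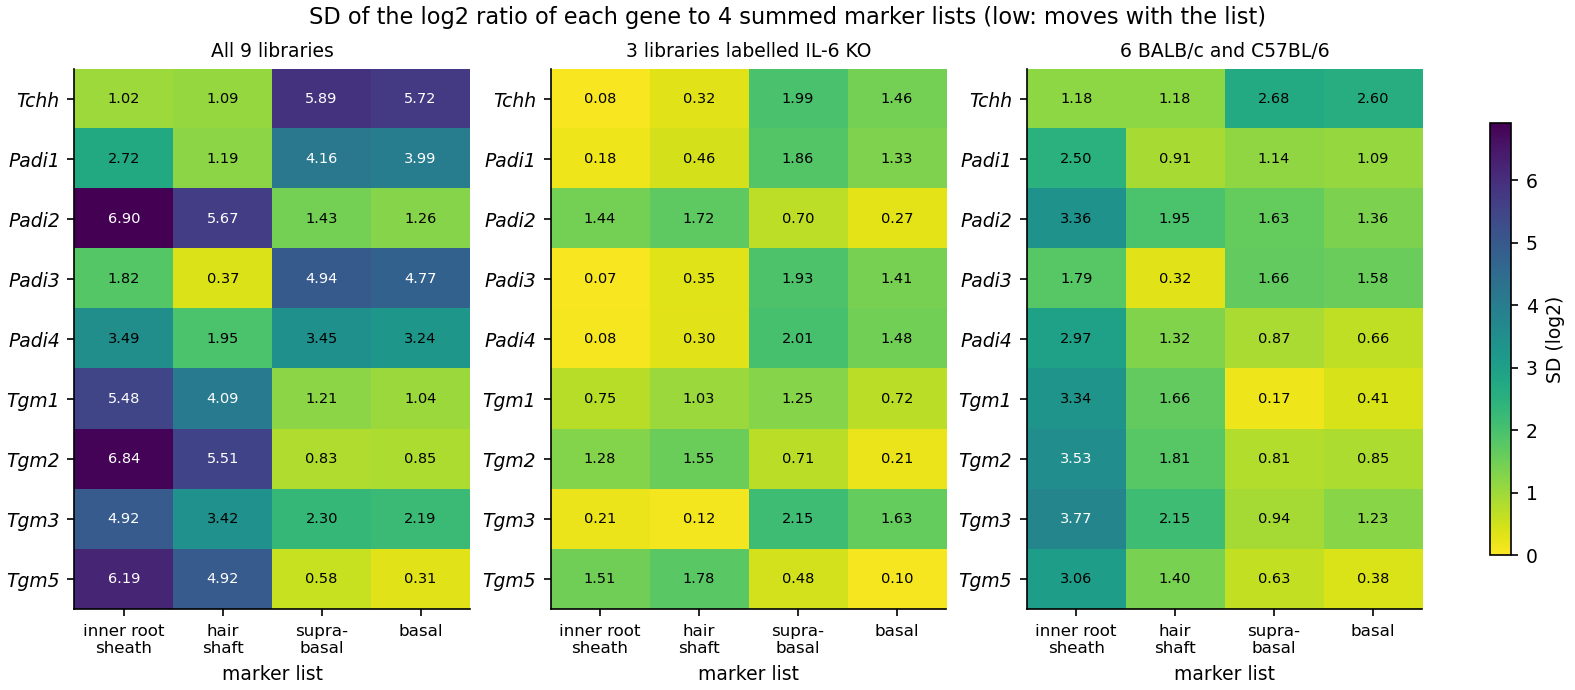
SD of the log2 ratio of each of the 9 genes (rows) to 4 summed marker lists (columns), over all 9 libraries, over the 3 IL-6 KO-labelled libraries and over the 6 wild-type libraries, with low values in yellow. Among these 4 lists and over 9 libraries, Tchh, Padi1 and Padi3 have their low values to hair lists (1.02, 1.19 and 0.37). Tgm5 (0.31), Tgm2 (0.83) and Tgm1 (1.04) have them to epidermal lists. The own SDs of log2 CPM of these last genes are 0.465, 0.966 and 0.723, so Tgm1 follows none of the lists over 9 libraries. Within the IL-6 KO-labelled libraries Tgm3 has a low value to the hair shaft keratins (0.12).

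The single genes most like each member were taken by the same SD over 9 libraries, as a description. For Tchh they were the inner root sheath keratins Krt72 (0.450) and Krt27 (0.455) and the hair shaft keratin Krt81 (0.519). For Padi3 they were Krtap4-7 (0.119), Crnn (0.222) and Krtap4-1 (0.263), and for Padi1 Krtap4-13 (0.422), Krtap26-1 (0.426) and Krtap1-4 (0.442), where Krtap genes encode keratin-associated proteins of the hair shaft. For Padi4 they were Krtap3-2 (0.319), Tubb3 (0.394) and Csdc2 (0.397). Padi1, Padi3 and Padi4 were tested only through the IL-6 KO-labelled libraries and had 7, 4 and 12 reads in BALB/c. Genes that are also near 0 there, such as Crnn (0.213 CPM in BALB/c), can match them through the 0.5 CPM added. The neighbours of these deiminases therefore lend no further support to the values for the lists. Tgm1 was most like Pnpla1 (0.099), a lipid enzyme of the epidermal barrier, Arap2 (0.137) and BC016579 (0.147). Tgm3 had no neighbour as close, with Rtkn2 (0.437), Tmem229b (0.453) and Adh6b (0.530). Padi2 was most like Asb15 (0.478), Ankrd2 (0.598) and Ankrd23 (0.657), all known from striated muscle, and Tgm2 most like Slc16a3 (0.149), Bin1 (0.193) and Ppp1r27 (0.194). Tgm5 was most like H2-K1 (0.159), Akr1e1 (0.164) and Cers2 (0.179).

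The genes around these enzymes were read from lists, in the IL-6 KO-labelled libraries against C57BL/6 unless BALB/c is named. The median log2 fold change of all tested genes was 0.01 in both comparisons, and 35.2% and 37.3% of them were called against C57BL/6 and BALB/c. All 8 inner root sheath keratins were called higher (median 7.32), as were all 12 tested hair shaft keratins (median 8.02). Of 9 hair matrix factors, 8 were called higher and 0 lower (median 3.81), among them Msx2 (log2 4.93, SE 0.51) and Hoxc13 (log2 4.21, SE 0.49), which drive hair differentiation. Suprabasal markers differed in sign between the comparisons. Of 17, 4 were called higher and 1 lower against C57BL/6 (median 0.59), and 1 higher and 2 lower against BALB/c (median -0.69), in both a smaller share than among all genes. Among them was involucrin (Ivl), a transglutaminase substrate, higher than in C57BL/6 at log2 1.41 (SE 0.29). Of 8 basal markers, 0 were called higher and 4 lower (median -0.77), among them Krt15 at log2 -2.33 (SE 0.37) and Dst at -1.54 (SE 0.25), and against BALB/c 0 were called higher and 2 lower (median -0.47).

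Substrates of the crosslinking enzymes were divided. Of 26 tested cornified envelope precursors, 13 were called higher and 0 lower against C57BL/6 (median 1.25), and 9 higher and 6 lower against BALB/c (median 0.42). Among those higher than in C57BL/6 were Sprr1b (log2 6.93, SE 0.37) and Sprr1a (log2 4.28, SE 0.49), small proline-rich proteins that transglutaminases join. Of the 6 relatives of trichohyalin in the S100 fused family, 4 were called higher and 0 lower (median 2.61; against BALB/c 3 higher and 1 lower, median 2.73), with Tchhl1 at log2 6.69 (SE 0.78) and Crnn at log2 7.19 (SE 0.95). Of 7 known deiminase substrates other than trichohyalin, 2 were called higher and 1 lower (median -0.29), and against BALB/c 1 higher and 2 lower (median -0.18). S100a3, a hair cuticle protein, averaged 1069.8 ± 688 CPM in the IL-6 KO-labelled libraries, 1.13 ± 0.472 CPM in BALB/c and 5.24 ± 4.73 CPM in C57BL/6 (SD, n = 3 each). Mbp, the myelin protein, was the substrate called lower than in C57BL/6 (log2 -2.19, SE 0.24).

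Of the other enzymes of the 2 families, Tgm6 and Tgm7 parted. Tgm6, on chromosome 2 like Tgm3, had 211, 54.6 and 150.1 CPM in the IL-6 KO-labelled libraries, 0, 0 and 0.324 CPM in BALB/c, and 2.15, 0.447 and 0 CPM in C57BL/6. With 2 reads in BALB/c, the pooled ratio over BALB/c was 1221, with a 95% counting interval from 337 to 10089.7. Tgm7 had 0.529, 2.04 and 0.849 CPM in the IL-6 KO-labelled libraries, 4.46, 5.82 and 5.19 CPM in BALB/c, and 10.8, 15.2 and 9.47 CPM in C57BL/6. Of 12 tested proteases and inhibitors that process these proteins, 5 were called higher and 1 lower (median 0.70; against BALB/c 5 higher and 0 lower, median 0.52), with Prss8 at log2 1.59 (SE 0.18) and Blmh, which breaks down deiminated filaggrin, at log2 0.88 (SE 0.12). Of 9 transcription factors of keratinocyte differentiation, 7 were called higher and 0 lower (median 1.20; against BALB/c 7 and 0, median 1.21), with Ovol1 at log2 2.00 (SE 0.28). Many hair genes entered the test through the IL-6 KO-labelled libraries, so these counts describe the lists and support nothing further.

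The windows of 250 bases before the annotated starts were read for the members, from RefSeq on GRCm38.p6. RefSeq gave a window for 8 of the 9 members and a second one for Tgm1, which makes 9 windows. Those of Padi1, Padi3 and Tgm3 are shown because these genes, like Tchh, were highest in the IL-6 KO-labelled libraries and have nearly the same start in RefSeq and in the deposited tables. Tchh meets the same rule, but its window (27.6% G and C) is not shown and holds none of the motifs named below. Capitals mark CCAAT on either strand (ATTGG on the other) and TATAAA.
Padi1 upstream, chr4:140845779-140846028, minus strand: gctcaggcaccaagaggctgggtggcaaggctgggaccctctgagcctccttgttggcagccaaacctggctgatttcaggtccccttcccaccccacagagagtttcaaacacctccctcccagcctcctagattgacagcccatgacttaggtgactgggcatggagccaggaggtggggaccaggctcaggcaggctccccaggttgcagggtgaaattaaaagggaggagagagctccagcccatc
Padi3 upstream, chr4:140810649-140810898, minus strand: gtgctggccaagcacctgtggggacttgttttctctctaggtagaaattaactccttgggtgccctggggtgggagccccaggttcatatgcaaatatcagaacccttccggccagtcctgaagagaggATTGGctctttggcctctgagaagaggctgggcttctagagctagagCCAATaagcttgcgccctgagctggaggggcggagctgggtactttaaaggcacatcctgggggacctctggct
Tgm3 upstream, chr2:130012090-130012339, plus strand: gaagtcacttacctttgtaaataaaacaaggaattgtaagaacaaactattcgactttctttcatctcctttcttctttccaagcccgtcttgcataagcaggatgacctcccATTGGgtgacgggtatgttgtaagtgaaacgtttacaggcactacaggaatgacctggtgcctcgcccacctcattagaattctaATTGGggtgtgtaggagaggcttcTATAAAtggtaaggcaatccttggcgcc

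Padi3 holds CCAAT at 74 and, reversed, at 121 bases before its start, Tgm3 holds it reversed at 52 and 137 bases before its start, and Padi1 holds none. Over all members CCAAT stood in 5 of 9 windows, against 33.8% of 32536 mouse windows of the same length. TATAAA stood in 2 of 9 windows, those of Padi4 and Tgm3, against 12.3% of all. TGANTCA, the AP-1 motif, stood in 1 of 9, that of Padi4, against 6.73% of all. Both strands were searched, and these matches of letters describe the windows alone.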

How the data were processed

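Skin RNA was sequenced in 9 libraries, 3 per group, and the authors deposited a gene table per library with read counts and RPKM values, per the file headers. The genome build was GRCm38, per the submitters' processing notes, whereas the aligner, like the strand setting, is not given in the sources used here. Total exon reads, raw counts in the deposited tables, were analysed. The deposited RPKM values follow from these counts, the exon length and 1 library size per table in 100% of genes above 50 reads and were not used further. For C57BL/6 replicate 1 the deposited file stacks 3 tables, and only the first was read, since the others repeat those of replicates 2 and 3 exactly. A further deposited column, Expression value, also holds counts and equals total exon reads in the IL-6 KO-labelled tables but unique exon reads plus multi-mapped junction reads in the others, so it served as an alternative only.

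Counts were fitted in R 4.3.3 with edgeR 4.0.16 in 1 model of 9 libraries with a term per group (6 residual degrees of freedom), after filterByExpr (minimum count 10, minimum total 15; 14415 genes) and TMM scaling (factors 0.887 to 1.10). Differences were tested with the quasi-likelihood F test, Benjamini-Hochberg adjusted over all genes tested, with a threshold of 0.05. The SE is the log2 fold change divided by the square root of F. The script was tested on simulated data. Log ratios to lists and between genes used CPM plus 0.5. DESeq2 1.42.0 gave an alternative test, and Python 3.11.15, pandas 2.3.3 and matplotlib 3.10.9 made tables and figures.

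The text names the 9 members, the 2 genes of a list with the lowest p in a joint test of the 3 groups, the 3 genes most like each member (leaving out predicted genes, clone names, pseudogenes and microRNAs), Il6 and Tyr, and, outside that rule and chosen with values seen, neutrophil markers at 0. Members, the 20 lists and tests were chosen with earlier results of these data known. Alternatives were RLE and library-size scaling, scaling on genes outside the hair, epidermal, melanocyte and muscle lists, no filter, a robust fit, a replicate block, only the groups compared, DESeq2, unique exon reads, the Expression value and leaving out each library. Counting intervals cover counting error only. 1 gene that the rule names is not reported here, and Krt85 is not analysed here.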

Additional observations from a re-analysis of the deposited data

Results flagged for a closer look

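Reads inside introns, a column that the comparisons above do not use, also carried Padi1, Padi3 and Padi4 in the IL-6 KO-labelled libraries, each above every wild-type library. Padi3 had 677, 289 and 740 intron reads there, a mean of 132 CPM, against 1, 0 and 1 reads in BALB/c and 18, 4 and 0 in C57BL/6. Padi1 had 392, 185 and 333 intron reads in the IL-6 KO-labelled libraries, a mean of 70.7 CPM, against 0, 0 and 0 reads in BALB/c and 15, 2 and 2 in C57BL/6. Padi4 had 217, 71 and 189 intron reads in the IL-6 KO-labelled libraries, a mean of 37.3 CPM, against 4, 2 and 2 reads in BALB/c and 5, 5 and 1 in C57BL/6. In all 3 genes replicate 2 was again the lowest library of its group. Padi2 differed, with 8, 11 and 14 intron reads in the IL-6 KO-labelled libraries (mean 2.44 CPM). It had 8, 7 and 9 in BALB/c (mean 1.30 CPM) and 16, 31 and 10 in C57BL/6 (mean 2.98 CPM). On these few reads its fall against C57BL/6 in exon reads was not seen. Introns of Tchh held 14, 8 and 6 reads in the IL-6 KO-labelled libraries.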

How the results depend on the processing

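Members called numbered 7 to 9 in the IL-6 KO-labelled libraries against C57BL/6 and 6 or 7 against BALB/c over all alternatives. For BALB/c against C57BL/6 the count, 1 as reported, was 0 with the replicate block, with unique exon reads and with the Expression value, 4 with DESeq2 (Tchh, Padi2, Padi3 and Tgm3), which called 1033 of all genes against 491 as reported, and 0 to 3 when 1 library was left out. Replicate numbers showed no sign of pairing: 0 of 9 same-numbered pairs had deviations correlated above 0.1 (-0.212 to 0.0617), against 4 of 18 differently numbered pairs. With 3 libraries per group, these correlations cannot exclude a shared batch. With the block the call of Tgm5 against C57BL/6 ended (adjusted p = 0.0642, edgeR), as did that of Padi2 in BALB/c against C57BL/6 (adjusted p = 0.0568, edgeR). Scaling by library size alone raised the share of higher calls in the IL-6 KO-labelled libraries against C57BL/6 to 67.8%, against 54.6% as reported, and the median log2 fold change to 0.15; the call of Tgm5 ended (adjusted p = 0.108, edgeR). With the Expression value, which is not built alike in all tables, the log2 fold change of Tchh in the IL-6 KO-labelled libraries was 19.31 over BALB/c and 13.27 over C57BL/6, that of Padi2 against BALB/c turned to 0.55, and Tgm2 was no longer called (adjusted p = 0.177 against BALB/c and 0.156 against C57BL/6, edgeR). Reversals were otherwise of uncalled values near 0: Tgm5 against BALB/c ranged from -0.45 to 0.0840 with a library left out, and Tgm2 in BALB/c against C57BL/6 gave -0.10 with the block, -0.0640 on unique reads, -0.0471 with the Expression value and -0.30 to 0.36 with a library left out. The SD to the suprabasal list minus that to the inner root sheath keratins turned for Padi4 to 0.22 with 0.1 CPM added, 0.92 with mean log levels and 1.93 within the IL-6 KO-labelled libraries (-0.67 to 0.47 with a library left out). Within those libraries it turned to 0.50 for Tgm1 and 1.94 for Tgm3, and within the strains to -1.36 for Padi1 and -0.13 for Padi3. The cause was not tested. Log2 ratios of Padi3 to Padi1 and of Tgm3 to Tgm1 kept their direction with each library left out. Under 10 reads per group, Padi1 and Padi3 in BALB/c are limited by depth.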

Other observations

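Melanocyte genes were also higher in the IL-6 KO-labelled libraries: 6 of 6 tested were called higher than in C57BL/6 (median log2 fold change 4.93), where 19.2% of all genes were called higher. The list summed to 806, 103 and 901 CPM in the IL-6 KO-labelled libraries, 39.2, 30.6 and 33.9 CPM in BALB/c, and 51.2, 41.6 and 36.6 CPM in C57BL/6. Tyr, the pigment enzyme, had 221, 20 and 338 reads in the IL-6 KO-labelled libraries, 3, 0 and 2 for BALB/c, and 2, 5 and 1 for C57BL/6. It reached the minimum for testing only through the IL-6 KO-labelled libraries, so the count of melanocyte genes called is a description. Replicate 2 of those libraries was lowest for Tyr and the list, as it was for Tchh, Padi1, Padi3, Padi4, Tgm1 and Tgm3. The likeness of Padi4 and Tgm3 to the melanocyte list, compared after the other values were seen, was an SD of 1.25 and 1.01 over 9 libraries.

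Tgm4 was at the limit of detection, with 3, 5 and 3 reads in the IL-6 KO-labelled libraries, 4, 4 and 7 for BALB/c, and 9, 12 and 6 for C57BL/6. Padi6, the deiminase of the egg cell, had 0 reads in all 9 libraries, which allows up to 3 reads in each. F13a1, the transglutaminase of blood clotting, stood at 94.9, 245 and 99.1 CPM in the IL-6 KO-labelled libraries, 119, 200.2 and 148 CPM in BALB/c, and 239, 107 and 143 CPM in C57BL/6, with overlapping groups.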
